A study of Sus scrofa with 12 samples.

Results

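NR4A1, NR4A3, ATF3, TRIB3, GADD45A, DUSP1 and PER1 are 7 immediate early and stress-response genes among the 516 genes that the authors listed for a comparison of pig hearts under left ventricular pressure overload with hearts of referent control pigs. Of the 7, 5 had a higher mean in pressure overload (NR4A1, NR4A3, ATF3, TRIB3 and GADD45A) and 2 a lower one (DUSP1 and PER1). For all 7 genes the libraries of the groups overlapped, as for most listed genes: the groups were fully separated for 9.69% of the 516. For NR4A3, ATF3 and TRIB3 the ratio of the group means moved by over 1.5 times when 1 library was left out, a different one for each gene. The rows were taken by gene symbol and chosen by measured values: each gene stands in the table because its unadjusted p in the authors' comparison of the same libraries was under 0.05. The differences between the groups are therefore given below as descriptions, with no test.

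Immediate early genes are transcribed within minutes of a stimulus, without new protein synthesis, and many encode transcription factors or enzymes that shut the signal off again. In heart muscle they respond to stretch, catecholamines, ischaemia and stress hormones, and also to the handling of tissue before it is frozen. A second, slower arm works through the integrated stress response, in which phosphorylation of the translation factor eIF2 alpha favours the translation of ATF4, and ATF4 then drives genes such as ATF3 and TRIB3.

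The study inflated a cuff around the ascending aorta in steps and studied the pigs after 5 weeks of pressure overload. The series text names 9 pigs with pressure overload and 6 referent control pigs matched for age and weight, and 6 libraries of pressure overload and 6 of controls were analysed here. The labels call the tissue heart and give no chamber, breed, sex or age, and 1 treatment text, on the cuff, is shared by all 12 libraries, so what was done to the controls cannot be read from them. Polyadenylated RNA was sequenced with a directional kit. All 12 libraries carry different titles in the labels. The labels do not say that each library came from its own pig, so a p-value here measures the spread between libraries. In whole tissue, fewer cells of a type and less RNA per cell cannot be told apart.

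Library size, recovered from the step between low CPM values (read counts scaled by library size), lay between 24.3 and 31.9 M reads in pressure overload and between 19.5 and 30.2 M in controls. Replicates 1 to 3 of both groups carry the sample numbers 1 to 6 in the labels, and replicates 4 to 6 of both groups the numbers 10 to 15. Overload replicate 3 stood apart from the other overload libraries. The listed genes other than ND6 and the 7 genes described here summed to 24213 CPM in it, which is within the control range of 23284 to 27681 CPM, whereas the other overload libraries lay between 19752 and 21319 CPM. Without it, the groups did not overlap for 162 of the 516 listed genes, against 50 with it and 57 to 86 when any other library was left out. Results that rest on this library are given with and without it. Leaving it out reversed none of the 7 differences: on the log2 scale explained below, they were then 1.62 for ATF3, 0.997 for NR4A3, 0.92 for TRIB3, 0.62 for GADD45A, 0.36 for NR4A1, -0.47 for DUSP1 and -0.61 for PER1. Of 101 marker genes in 10 lists (heart muscle, endothelium, fibroblasts, smooth muscle, macrophages, neutrophils, lymphocytes, red cells, fat cells, atrium and conduction system), KDR and MYL4 were listed, and 8 lists had no listed gene. Of all genes that the authors tested, 3.39% were listed, so few listed markers are no result about cell types. KDR, a receptor of endothelium, was at 150 ± 35.5 CPM in overload and 101 ± 27.5 CPM in controls, and MYL4, the atrial light chain of myosin, at 9.35 ± 4.78 CPM in overload and 24.9 ± 10.4 CPM in controls (SD, n = 6 each). Their part in the results below was not tested. The defining heart muscle markers, such as MYH7 and TNNT2, are not among the listed genes and were not analysed here, so the tissue label could not be checked with them.

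In the authors' deposited table, 0 of the 7 genes had an adjusted p under 0.05, where 1.16% of the listed genes did. NR4A3 had the smallest unadjusted p of the 7 in the authors' deposited table, 0.00474, with an adjusted p of 0.861, and the adjusted p of the other 6 was 1. For TRIB3, GADD45A, ATF3 and DUSP1 the authors' deposited table gives an unadjusted p of 0.0168, 0.0246, 0.0340 and 0.0382. NR4A1 at 0.0471 and PER1 at 0.0492 were just inside the limit of the authors' deposited table, whose largest unadjusted p is 0.04997, and genes beyond that limit were not analysed here. By log2 fold change, overload over control, the authors' deposited table gives TRIB3 1.76, NR4A3 1.67, ATF3 1.37, GADD45A 0.55, NR4A1 0.47, PER1 -0.43 and DUSP1 -0.46. Of the 7 genes, 3 reached a log2 fold change of 1 there (the authors' deposited table), where 2.91% of the listed genes did, and 5 were higher, where 27.3% were. These counts come from the values on which the genes were chosen. The libraries of the groups were fully separated for 0 of the 7 genes, where they were for 9.69% of the listed genes. Without overload replicate 3 they were so for 0 of the 7 genes and for 31.4% of the listed genes.

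**Figure D1:**
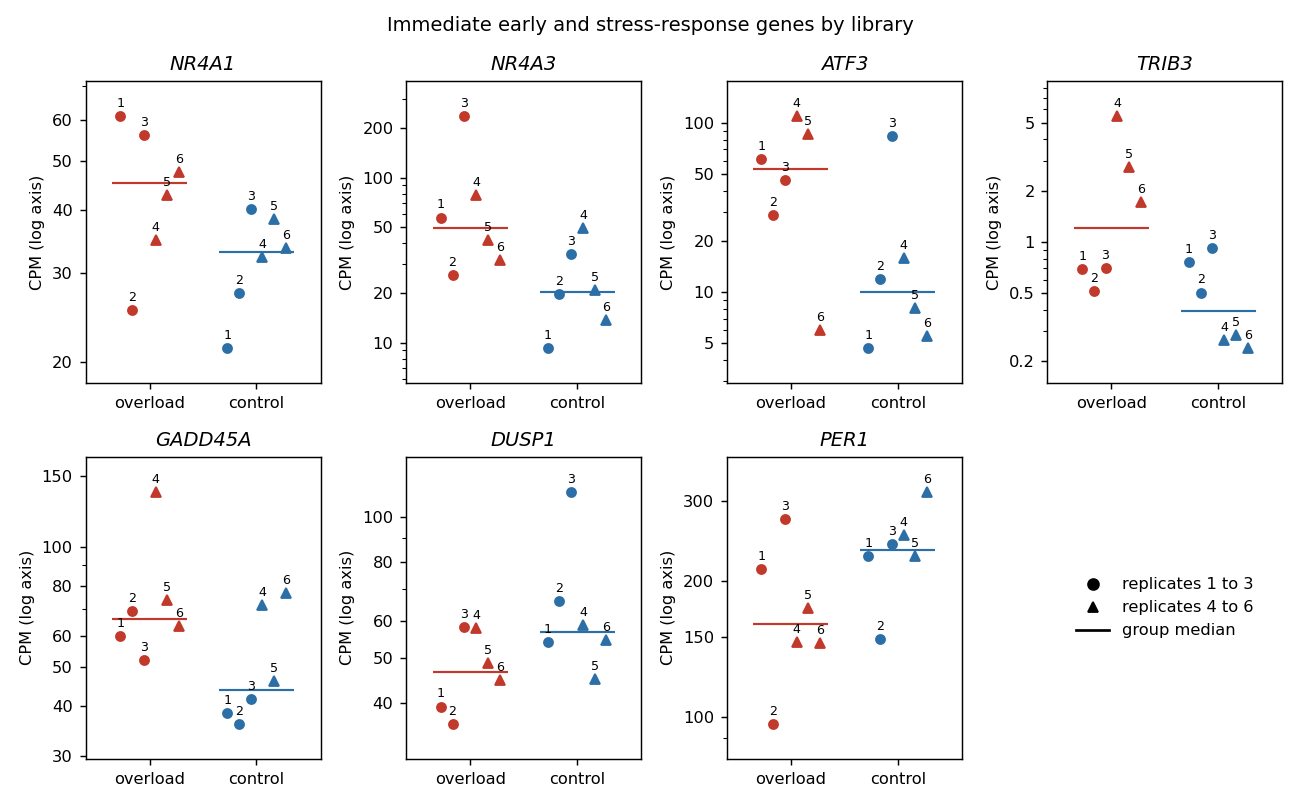
CPM of the 7 genes in each library, on log axes, with pressure overload left of control. Circles are replicates 1 to 3, triangles replicates 4 to 6, numbers name the replicate and lines are group medians. NR4A3 at 237 CPM in overload replicate 3 and ATF3 at 84.5 CPM in control replicate 3 lie far from the rest of their groups.

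NR4A1 and NR4A3 are orphan nuclear receptors of the NR4A family. They have no known endogenous hormone ligand, and their activity follows how much of the protein is made, so that transcript level is the usual readout of their induction. In the RefSeq annotation of Sscrofa11.1, the build of all positions below, NR4A1 spans 17403088 to 17407918 on chromosome 5 and is marked as a pseudogene, while NR4A3 spans 241569867 to 241611735 on chromosome 1 and is protein-coding.

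NR4A3 was at 25.7, 49.6 and 237 CPM in the lowest, median and highest overload library, against 9.23, 20.2 and 49.8 CPM in the lowest, median and highest control. All 6 overload libraries were above the control median, but only replicates 1, 3 and 4, at 57.4, 237 and 78.6 CPM, were above the highest control, so the groups overlapped. The mean was 78.7 ± 79.9 CPM in overload and 24.6 ± 14.96 CPM in controls (SD, n = 6 each). The difference in mean log2(CPM + 1), the scale of all log2 differences below that are not the authors', was 1.40 ± 0.58 (SE). Without overload replicate 3 the overload mean was 47.0 ± 21.4 CPM (SD, n = 5), 1.91 times the control mean in place of 3.20 times, and the log2 difference was 0.997. Without control replicate 4, the highest control, the ratio was 4.03.

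NR4A1 differed less. Its lowest, median and highest values were 25.4, 45.1 and 61.2 CPM in overload and 21.3, 32.9 and 40.1 CPM in controls. Replicates 1, 3, 5 and 6 of overload were above the highest control, while replicate 2 at 25.4 CPM was below all controls but replicate 1. The mean was 44.7 ± 13.3 CPM in overload and 32.2 ± 6.98 CPM in controls (SD, n = 6 each), a ratio of 1.39 and a log2 difference of 0.43 ± 0.23 (SE). The ratio stayed between 1.29 and 1.51 when any 1 library was left out. NR4A2, the remaining receptor of the family, is not listed and was not analysed here.

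ATF3 and TRIB3 belong to the stress arm. ATF3 is a transcription factor of the ATF/CREB family that is induced both as an immediate early gene and downstream of ATF4, and it mostly represses its targets. TRIB3 is a pseudokinase, induced by ATF4 together with its partner DDIT3, that binds the kinase AKT and feeds back on ATF4. ATF3 lies on chromosome 9 from 130772259 to 130829678 and TRIB3 on chromosome 17 from 34808273 to 34819592.

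ATF3 was at 6.00, 53.8 and 110 CPM in the lowest, median and highest overload library and at 4.66, 10.06 and 84.5 CPM in the lowest, median and highest control. In overload, replicates 1 to 5 were at 28.8 CPM or more and replicate 6 was at 6.00 CPM, within the range of the low controls. In controls, 5 libraries were at 15.9 CPM or less and replicate 3 was at 84.5 CPM, above all overload libraries but replicates 4 and 5. Each group thus held 1 library at the level of most libraries of the other group. The mean was 56.6 ± 38.1 CPM in overload and 21.8 ± 31.0 CPM in controls (SD, n = 6 each), a ratio of 2.60. The ratio was 6.12 without control replicate 3 and 2.10 without overload replicate 4. The log2 difference was 1.65 ± 0.83 (SE). Among all 516 listed genes, ATF3 had the largest SD of log2(CPM + 1) within groups, 1.43 where the median gene had 0.31, and NR4A3 was the fourth, with 0.998.

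TRIB3 had few reads. It was at 0.517, 1.21 and 5.50 CPM in the lowest, median and highest overload library, from 14 to 142 reads, against 0.238, 0.395 and 0.921 CPM in the lowest, median and highest control, from 6 to 18 reads. It was the only one of the 7 genes that did not reach 1 CPM in at least 6 libraries, and so would fail such a filter on low values. The mean was 1.98 ± 1.92 CPM in overload and 0.496 ± 0.288 CPM in controls (SD, n = 6 each), a ratio of 3.998, or 2.58 without overload replicate 4. The log2 difference of 0.80 ± 0.35 (SE) understates a change at this level, and was 1.47 with 0.1 CPM added before the log in place of 1 CPM.

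The high TRIB3 values were all in overload replicates 4, 5 and 6, at 5.50, 2.76 and 1.73 CPM. Overload replicates 1, 2 and 3 were at 0.692, 0.517 and 0.700 CPM, inside the control range. In controls the split went the other way, with 0.762, 0.506 and 0.921 CPM in replicates 1, 2 and 3 and 0.265, 0.285 and 0.238 CPM in replicates 4, 5 and 6. Within replicates 4 to 6 the groups did not overlap and the ratio of means was 12.7, whereas within replicates 1 to 3 it was 0.872. Taking every 2 reads as 1 fragment, the exact 95% Poisson interval was 1.07 to 2.64 CPM for overload replicate 6 (21 fragments) and 0.0776 to 0.729 CPM for control replicate 5 (4 fragments), the closest pair within replicates 4 to 6. These intervals cover counting error only.

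GADD45A encodes a small stress sensor that is induced by DNA damage and growth arrest signals and that activates the p38 and JNK kinase cascade. It lies on chromosome 6 from 144940702 to 144944089. It was at 52.1, 66.2 and 137 CPM in the lowest, median and highest overload library, against 36.1, 44.0 and 76.7 CPM in the lowest, median and highest control. All 6 overload libraries were above the control median, and only replicate 4 was above the highest control. The mean was 75.9 ± 31.0 CPM in overload and 51.8 ± 17.7 CPM in controls (SD, n = 6 each), a ratio of 1.46 and a log2 difference of 0.53 ± 0.27 (SE). Without overload replicate 4 the ratio was 1.23 and the log2 difference 0.34. Among replicates 1 to 3, the 3 overload libraries, between 52.1 and 69.1 CPM, were above the 3 controls, between 36.1 and 41.7 CPM. In replicates 4 to 6 the overload libraries, between 63.4 and 137 CPM, overlapped with the controls, between 46.2 and 76.7 CPM.

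DUSP1 and PER1 were lower in pressure overload. DUSP1 (MKP1) is a nuclear phosphatase that inactivates p38, JNK and ERK and is itself induced by these kinases and by glucocorticoids. PER1 is a repressor of the circadian clock whose promoter also answers to cAMP, through CREB, and to glucocorticoids, so it behaves as an immediate early gene as well. DUSP1 lies on chromosome 16 from 51457924 to 51461095 and PER1 on chromosome 12 from 53361863 to 53376723.

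DUSP1 was at 36.05, 46.7 and 58.2 CPM in the lowest, median and highest overload library and at 45.1, 56.6 and 113 CPM in the lowest, median and highest control. Overload replicates 1, 2 and 6 were below the lowest control, and the other 3 were within the control range. The mean was 47.5 ± 9.29 CPM in overload and 65.3 ± 24.5 CPM in controls (SD, n = 6 each), a ratio of 0.727 and a log2 difference of -0.41 ± 0.22 (SE). Without control replicate 3, at 113 CPM, the log2 difference was -0.24 and the ratio 0.853. Within replicates 1 to 3 the log2 difference was -0.75, and within replicates 4 to 6 it was -0.06.

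PER1 was at 96.6, 160 and 274 CPM in the lowest, median and highest overload library, against 149, 234 and 314 CPM in the lowest, median and highest control. Of the 6 overload libraries, 5 were below the control median and replicates 2, 4 and 6 were below the lowest control. Overload replicate 3, at 274 CPM, was above all controls but replicate 6. The mean was 175 ± 61.5 CPM in overload and 235 ± 53.4 CPM in controls (SD, n = 6 each), a ratio of 0.743 and a log2 difference of -0.47 ± 0.25 (SE). The ratio was 0.659 without overload replicate 3 and 0.809 without overload replicate 2. In replicates 4 to 6 the overload libraries, between 146 and 174 CPM, lay below the controls, between 227 and 314 CPM, whereas in replicates 1 to 3 the log2 difference was -0.18. After the libraries were rescaled by median-of-ratios factors from the listed genes, the log2 difference was -0.14 for PER1 and -0.09 for DUSP1, and that rescaling moved the median of all listed genes by 0.32, to -0.10 in place of -0.41.

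**Figure D2:**
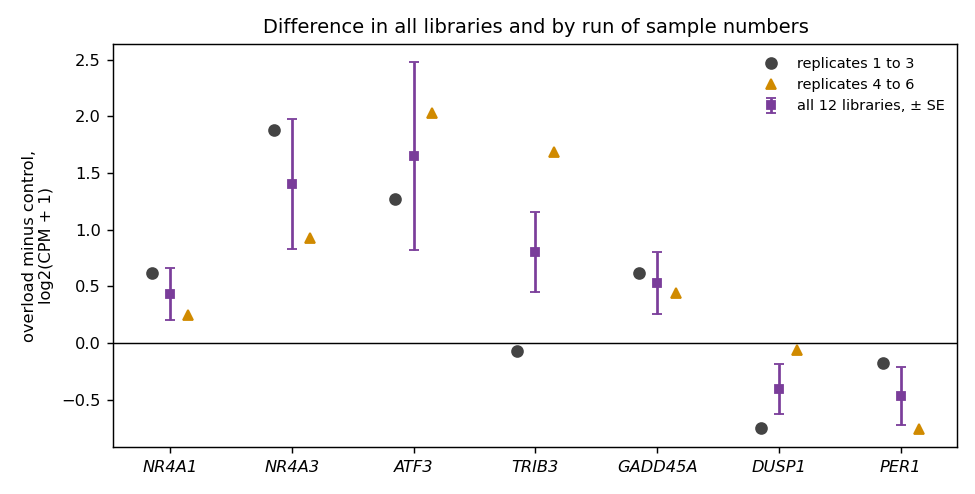
Difference in mean log2(CPM + 1), overload minus control, for each gene in all 12 libraries (squares, ± SE), in replicates 1 to 3 (circles) and in replicates 4 to 6 (triangles). TRIB3 is at -0.0745 in replicates 1 to 3 and at 1.68 in replicates 4 to 6, and the other 6 genes keep their sign in both.

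The direction was the same in both runs of sample numbers for 6 of the 7 genes, 4 higher and 2 lower, which their listing on these libraries favours. The share of all listed genes that keep their direction was not computed, so this count is a description of the 7 genes only. One of the 6, DUSP1, had a log2 difference of only -0.06 in replicates 4 to 6. NR4A3 had a log2 difference of 1.88 in replicates 1 to 3 and 0.92 in replicates 4 to 6. NR4A1 had 0.62 and 0.25, GADD45A 0.62 and 0.44, and ATF3 1.27 and 2.03 in the same order. TRIB3 was the exception, with -0.0745 and 1.68. Whether the differences differed between the runs was not tested. The median log2 difference of the 7 genes, which were chosen on these values, was 0.53, against -0.41 over all 516 listed genes.

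The libraries that were the highest or second highest of their group for at least 4 of the 7 genes were overload replicates 3 and 4 and control replicates 3 and 4. The same counts over all listed genes were not computed, so whether 4 or 5 is particular to these 7 genes is not known. Overload replicate 4 was the highest or second highest overload library for 5 of the 7 genes, and the highest for ATF3, TRIB3 and GADD45A. Overload replicate 3 was so for 4 genes, and the highest for NR4A3, DUSP1 and PER1. Overload replicates 3 and 4 were the highest and second highest for both NR4A3 and DUSP1. For other genes they parted: replicate 4 was the second lowest for NR4A1, and replicate 3 was the lowest for GADD45A. Overload replicate 5 was the second highest for 3 genes, ATF3, TRIB3 and GADD45A. Overload replicate 2 was the lowest for 5 genes, NR4A1, NR4A3, TRIB3, DUSP1 and PER1.

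Among controls, replicate 3 was the highest or second highest for 5 of the 7 genes, and the highest for NR4A1, ATF3, TRIB3 and DUSP1. Its place for TRIB3 rests on 18 reads, against 16 and 14 in control replicates 1 and 2, which is within counting error. The largest count for any library, 5, was 4 without TRIB3 and 6 after median-of-ratios rescaling. Control replicate 4 was the highest or second highest for 4 genes. Control replicate 1 was the lowest for NR4A1, NR4A3 and ATF3. Control replicate 3 also had the smallest library, at 19.5 M reads, and overload replicate 4 one of 25.8 M reads, close to the overload median of 26.5 M. The part of depth in these values was not tested.

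**Figure D3:**
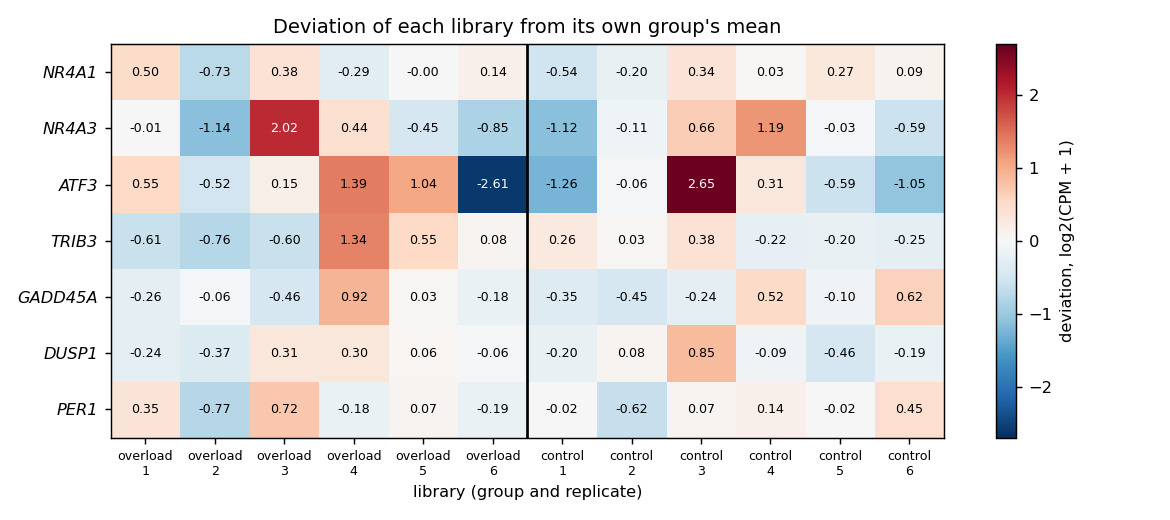
Deviation of each library from the mean of its own group, in log2(CPM + 1), for the 7 genes, with overload libraries left of controls. ATF3 deviates by 2.65 in control replicate 3 and by -2.61 in overload replicate 6, and NR4A3 by 2.02 in overload replicate 3.

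Whether the genes were high in the same libraries was measured apart from the difference between the groups, by correlating their deviations from the group means over the 12 libraries. Of the 21 pairs, 16 had a positive and 5 a negative Pearson r, and the median r was 0.23, against 0.10 over the 132870 pairs of listed genes. An r of at least 0.5 was reached by 6 of the 21 pairs and by 20.3% of all pairs of listed genes. No pair passed after adjustment over the 21 pairs (exact permutation within groups, two-sided, smallest adjusted p = 0.318 for Pearson's r and 0.310 for Spearman's rho), and 2 pairs were under 0.05 before adjustment by each measure.

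NR4A1 and PER1 had the highest r of the 21 pairs, 0.71 (exact permutation p = 0.0197, adjusted p = 0.318), with a rho of 0.65 (exact permutation p = 0.0439, adjusted p = 0.310). Their r was 0.66 without overload replicate 2 and control replicate 1, the libraries farthest from the NR4A1 median (exact permutation p = 0.0549). It was 0.89 among the overload libraries and 0.34 among the controls. Within replicates 1 to 3 of both groups it was 0.77 (exact permutation, adjusted p = 0.486). Within replicates 4 to 6 it was -0.17 (exact permutation, adjusted p = 0.706). With 3 libraries per group in each run, these values cannot show whether the relation differs between the runs. ATF3 and DUSP1 had an r of 0.69 (exact permutation p = 0.0303, adjusted p = 0.318) and a rho of 0.54 (exact permutation p = 0.0834, adjusted p = 0.310). Without control replicate 3 and overload replicate 6 their r was 0.54 (exact permutation p = 0.147). Without control replicate 3 alone it was 0.38 (exact permutation, adjusted p = 0.808), and without overload replicate 6 alone it was 0.84, so the value rests on control replicate 3.

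NR4A3 and ATF3 had an r of 0.52 (exact permutation p = 0.106, adjusted p = 0.319) and a rho of 0.66 (exact permutation p = 0.0270, adjusted p = 0.310), and an r of 0.80 without overload replicate 3 and control replicate 4 (exact permutation p = 0.0119). NR4A1 and NR4A3, the receptors of the same family, had an r of 0.55 (exact permutation p = 0.0935, adjusted p = 0.319) and a rho of 0.58 (exact permutation p = 0.0730, adjusted p = 0.310). Their r was 0.23 without overload replicate 2 and control replicate 1 (exact permutation p = 0.610). ATF3 and TRIB3 had an r of 0.36 (exact permutation p = 0.296, adjusted p = 0.690) and a rho of 0.30 (exact permutation p = 0.373, adjusted p = 0.757), and an r of 0.59 without control replicate 3 and overload replicate 6 (exact permutation p = 0.120).

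TRIB3 and DUSP1 had an r of 0.48 (exact permutation p = 0.0521, adjusted p = 0.319) and a rho of 0.51 (exact permutation p = 0.106, adjusted p = 0.318), and an r of 0.34 without overload replicates 2 and 4 (exact permutation p = 0.259). Without overload replicate 3, this pair had an r of 0.64 and passed the adjustment over the 21 pairs (exact permutation p = 0.00127, adjusted p = 0.0267). That was the only pass among 19 alternatives, which the adjustment does not cover, and TRIB3 had only 6 to 18 reads per control library. TRIB3 and GADD45A had an r of 0.44 over all libraries (exact permutation p = 0.189, adjusted p = 0.495) and a rho of 0.21 (exact permutation p = 0.555, adjusted p = 0.757). Within the groups their r had opposite signs, 0.86 among overload libraries and -0.73 among controls, and without overload replicates 2 and 4 it was -0.11 (exact permutation p = 0.698).

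**Figure D4:**
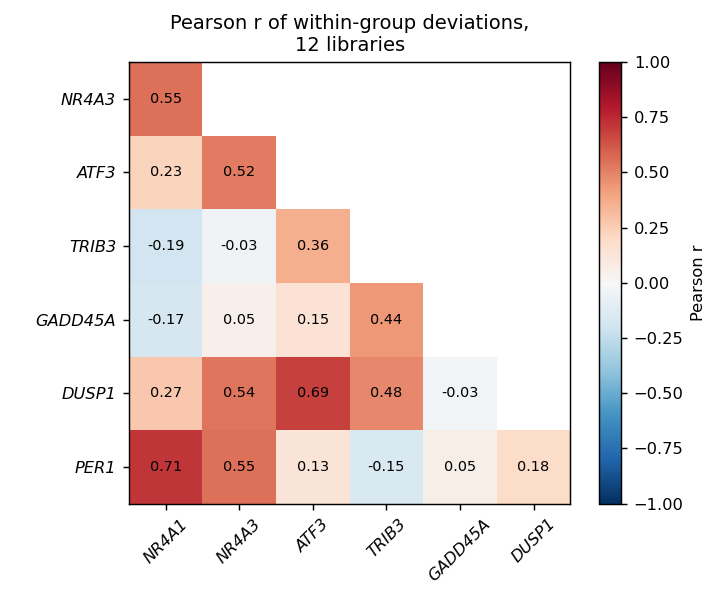
Pearson r of the deviations from the group means over the 12 libraries for each of the 21 pairs of genes. NR4A1 with PER1, at 0.71, and ATF3 with DUSP1, at 0.69, are highest, and GADD45A lies between -0.17 and 0.15 with every gene but TRIB3, at 0.44.

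The listed genes whose deviations were most like those of each of the 7 genes were sought among the 507 other listed genes with a mean of at least 1 CPM, over the 12 libraries. These r values are the highest of 507 and are descriptions without a test. PER1 was most like CLK1, CLK4 and RAB9A, with an r of 0.84, 0.81 and 0.81. CLK1 and CLK4, kinases of splicing factors, were also lower in overload, with log2 differences of -0.64 and -0.50. NR4A1 was most like RAB9A, ZNF567 and NRBP2 (r of 0.66, 0.65 and 0.64).

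CREM, a transcription factor of the CREB family that includes a cAMP-inducible repressor, was among the 3 genes most like NR4A3 (r = 0.74) and among the 3 most like ATF3 (r = 0.67). The others were MSMO1 and ZNF281 for NR4A3 (r of 0.78 and 0.75) and ARID5B and YWHAZ for ATF3 (r of 0.68 and 0.66). TRIB3 was most like PLGRKT, HSPA14 and UBE2NL (r of 0.86, 0.82 and 0.80). GADD45A was most like OSBPL3, CLINT1 and PHLDA2 (r of 0.85, 0.75 and 0.72). DUSP1 was most like RPS6KA3, MAP2K1 and GRB2 (r of 0.70, 0.67 and 0.66). These last 3 genes were higher in overload, with log2 differences of 0.35, 0.33 and 0.35, whereas DUSP1 was lower.

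Other genes of the same pathways were read from 9 lists that hold 205 distinct genes, of which 17 were listed, or 8.29%, where 3.39% of the 15235 genes tested by the authors were listed. The count of tested genes is that implied by the adjusted p-values of the authors' deposited table. Of the 17, 12 were higher and 5 lower in overload, where 27.3% of all listed genes were higher. The 17 include the 7 genes described above, and the other 10 were 7 higher and 3 lower. The lists were written with the 7 genes described above in view, so their shares are descriptions. Here and below, a share is over all genes of a list, tested by the authors or not. It is therefore not matched to the 3.39%, which is over tested genes only. Genes in more than 1 list count in each.

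Of 39 immediate early genes 7 were listed, 5 higher and 2 lower, where 27.3% of all listed genes were higher. The median log2 fold change was 0.47 by the authors' deposited table, against -0.42 over all listed genes. As 5 of these 7 are genes described above, and the median is the value of NR4A1, the counts and the median mostly restate values on which they were chosen. The 2 beyond those described were CREM and NFIL3. CREM was at 46.1 ± 12.8 CPM in overload and 33.5 ± 6.59 CPM in controls (SD, n = 6 each), and NFIL3, a repressor of the bZIP family that acts in the clock and in cytokine responses, at 36.8 ± 16.5 and 24.5 ± 3.81 CPM in the same order. For both, 4 of 6 overload libraries were above the highest control, but NFIL3 in overload replicate 5, at 16.5 CPM, was below the lowest control, at 19.3 CPM. The highest NFIL3 library was overload replicate 3, at 61.9 CPM, which was also the highest for NR4A3. FOS, JUN, EGR1 and the other members are not listed and were not analysed here.

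Of 22 targets of cAMP and CREB 6 were listed, 4 higher and 2 lower, where 27.3% of all listed genes were higher. They were CREM and 5 genes chosen on these values, NR4A1, NR4A3, ATF3, DUSP1 and PER1. In the integrated stress response list 4 of 38 were listed, 3 higher and 1 lower, beside the same 27.3%. Besides ATF3 and TRIB3 these were XBP1, the transcription factor of the IRE1 branch, at 115 ± 17.1 CPM in overload and 93.2 ± 9.14 CPM in controls, and STC2, a secreted glycoprotein induced by endoplasmic reticulum stress, at 43.5 ± 11.6 and 82.3 ± 63.8 CPM (SD, n = 6 each). The STC2 mean in controls rests on replicate 6 at 207 CPM, and the medians were 43.3 CPM in overload and 61.7 CPM in controls.

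Of 24 genes of the unfolded protein response 3 were listed, or 12.5%, where 3.39% of the tested genes were, and all 3 were higher, where 27.3% of the listed genes were. SERP1, a stabiliser of membrane proteins at the translocon, was at 17.7 ± 2.05 CPM in overload and 12.6 ± 1.39 CPM in controls, CREB3L1, a membrane-bound transcription factor, at 18.5 ± 2.65 and 12.8 ± 3.79 CPM, and HYOU1, a chaperone, at 50.7 ± 6.90 and 42.1 ± 4.52 CPM (SD, n = 6 each). Of 24 heat shock genes 1 was listed, HSPA4, at 142 ± 18.99 CPM in overload and 112 ± 15.4 CPM in controls. Its highest library was overload replicate 4, at 178 CPM, the library that led for ATF3, TRIB3 and GADD45A.

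Of 20 glucocorticoid-responsive genes 3 were listed, all lower, where 72.7% of the listed genes were lower. Of these, DUSP1 and PER1 were chosen on these values. The other was FKBP5, a co-chaperone of the glucocorticoid receptor, at 86.4 ± 39.1 CPM in overload and 158 ± 107 CPM in controls (SD, n = 6 each). FKBP5 ranged from 56.2 to 154 CPM in overload and from 37.2 to 300 CPM in controls, and control replicates 1 and 6 were above all overload libraries. Of 20 genes of growth arrest and the p53 response 2 were listed, GADD45A, higher, and TP53INP1, an inducer of cell death and autophagy, lower, at 30.4 ± 6.35 CPM in overload and 50.6 ± 17.6 CPM in controls. Of 23 clock genes PER1 and NFIL3 were listed, 1 lower and 1 higher, and of 17 dual-specificity phosphatases and related inhibitors only DUSP1. Of the 10 genes beyond the 7, 0 had an adjusted p under 0.05 in the authors' deposited table, where 1.16% of the listed genes did, and for 0 were the groups fully separated, where they were for 9.69% of the listed genes.

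**Figure D5:**
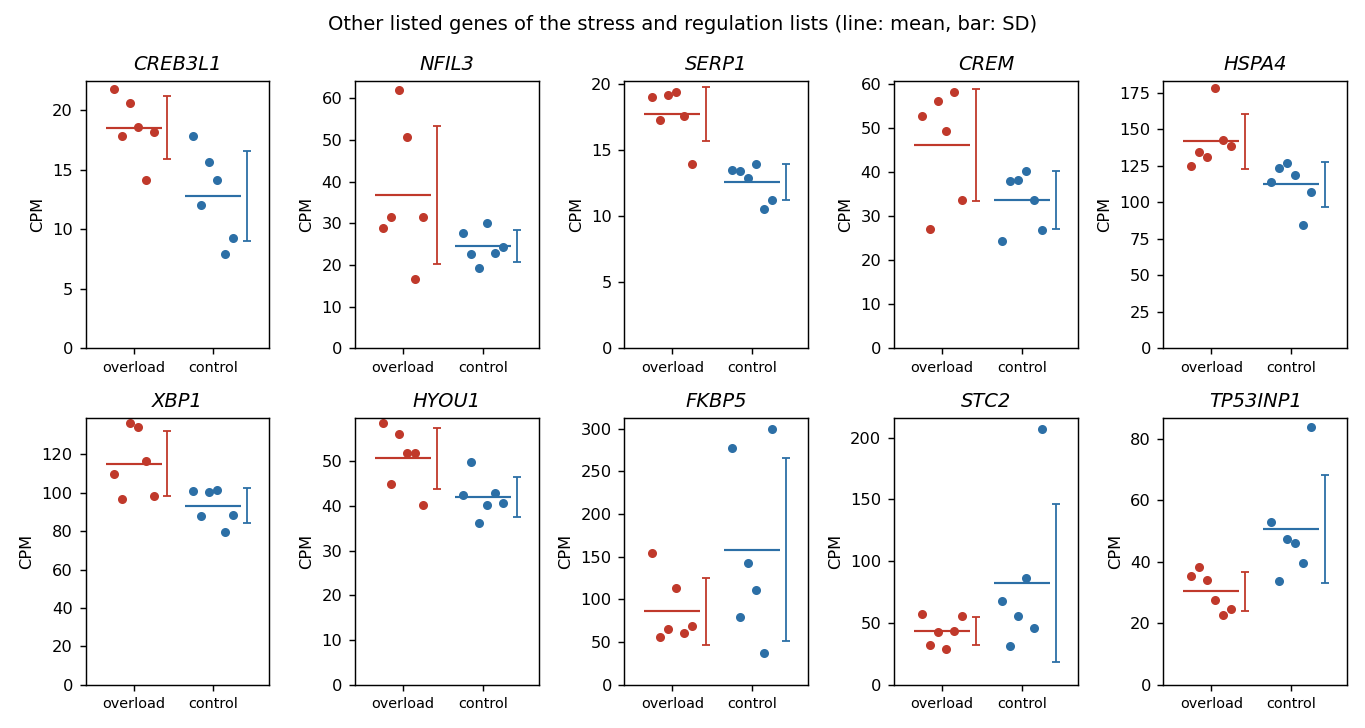
CPM per library of the 10 listed genes that the pathway lists hold beyond the 7, overload left of control, with the mean (line) and SD (bar), n = 6 each. SERP1 has 5 of 6 overload libraries above the highest control, and STC2 and FKBP5 in controls spread up to 207 and 300 CPM.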

How the data were processed

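The 12 libraries were polyadenylated RNA of pig heart, grouped by the group label. Per the submitters' processing notes, the tools were FastQC, Trim Galore 0.4.5, STAR 2.7.2b, SAMtools 1.5 and featureCounts of Subread 1.5.3 with build Sscrofa11.1. Neither these notes nor the labels state the annotation or the strand setting. The deposited table, made by the authors, holds CPM per library and group means in CPM, and whether library sizes were rescaled first is not given. It also holds the authors' log2 fold change and mean log2 CPM, a likelihood-ratio score and unadjusted and adjusted p-values, per the file headers. Only genes with an unadjusted p under 0.05 are in it.

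The genes and pathway lists were chosen with earlier results of these data known. Values were analysed as log2(CPM + 1). Deviations from group means were correlated over libraries, with exact permutation of libraries within groups and Benjamini-Hochberg adjustment over 21 pairs. The likeness rule named the 3 listed genes with the highest r per gene, and the list rule up to 6 further listed genes per list. No count model was fitted. Library sizes were searched between 18 and 36 M reads. At the sizes found, 94.6% to 96.7% of values under 3000 reads were whole within 0.02 reads. Of these, 78.9% to 85.3% were even numbers, so independent fragments may be fewer than reads. The values of the 7 genes were whole in all 12 libraries. Simulated libraries of all listed genes gave back 12 of 12 sizes within 0.1%. The simulated counts were whole numbers without the excess of even ones, so recovery with that excess was not tried. All 7 symbols matched RefSeq, and no annotated gene overlapped them. Python 3.11.15, NumPy 2.4.6, pandas 2.3.3 and SciPy 1.17.1 were used.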

Additional observations from a re-analysis of the deposited data

Results flagged for a closer look

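Of 16 groups of 6 values checked (7 genes and the library size, in each group), 4 held a library whose gap to its nearest neighbour, as a share of the group's range, was above Dixon's 95% critical value, and chance alone does so in about 1 in 20 groups where values are normally distributed, which was not tested for CPM. NR4A3 was at 237 CPM in overload replicate 3, with a gap of 0.7496 of the range. GADD45A was at 137 CPM in overload replicate 4 (gap of 0.748). ATF3 was at 84.5 CPM in control replicate 3 (gap of 0.859), and DUSP1 was at 113 CPM in the same library (gap of 0.692). On the log2(CPM + 1) scale, chosen after seeing the data, 1 value in the 14 groups of the 7 genes was above the critical value, GADD45A in overload replicate 4 (gap of 0.645). The gap was then 0.501 for NR4A3 in overload replicate 3, 0.597 for ATF3 in control replicate 3 and 0.586 for DUSP1 in control replicate 3.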

How the results depend on the processing

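Over 133 recomputed differences of the 7 genes (19 alternatives each), 130 kept their sign and moved by less than the SD of single libraries. TRIB3 made up the rest, at -0.0745 in replicates 1 to 3 alone, 1.68 in replicates 4 to 6 alone and 1.47 with 0.1 CPM added before the log. Leaving out 1 library cannot move a difference of means by that SD, so there only the sign could fail. The limit is also wide elsewhere. It passed DUSP1 at -0.06 in replicates 4 to 6, in place of -0.41, and PER1 at -0.14 after median-of-ratios rescaling, in place of -0.47. The median of the 7 differences was between 0.44 and 0.85 and between 4 and 5 genes were higher. Rescaling factors came from the listed genes, most of them lower, which builds in an upward shift: upper-quartile factors moved the median of all listed genes by 0.21. The number of pairs that passed the adjustment was 0 to 1 when 1 library was left out, with the 1 pair passing without overload replicate 3, and 0 under the other alternatives (smallest adjusted p of 0.0508 after median-of-ratios rescaling). The r of NR4A1 and PER1 was -0.17 in replicates 4 to 6 alone. The count of listed genes whose groups did not overlap was 57 to 162 without 1 library. The cause was not tested in any of these. Replicate numbers in the column headers were not taken to pair the libraries. Same-numbered libraries correlated between -0.09 and 0.23, with 2 of 6 over 0.1, and 4 of 12 libraries correlated best with their own number. These values, from listed genes only, cannot exclude a pairing. With a replicate block, 0 of the 21 pairs passed, and the r of NR4A1 and PER1 was 0.41 and that of ATF3 and DUSP1 0.66. Depth limits TRIB3 most, with 6 to 18 reads per control library.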
